A study of Capra hircus with 9 samples.

Results

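The expression of 10 marker genes of the mammary epithelium was followed in the mammary gland of Laoshan dairy goats, a Chinese dairy breed. The genes were chosen by symbol as textbook markers of the luminal and the basal (myoepithelial) layer, and all 10 were found among the 23499 genes of the deposited table. They are the luminal keratins KRT8, KRT18 and KRT7, the basal keratins KRT5 and KRT14, the basal transcription factor TP63, the contractile genes ACTA2, MYLK and CNN1 and the receptor gene OXTR. Mammary tissue was taken at slaughter from 9 healthy goats, 1 library each, with 3 goats in late lactation (LL, 240 days postpartum), 3 in the dry period (DP, 300 days postpartum) and 3 in late gestation (LG, 140 days after mating). All goats were on one farm under the same management, in parity 3 and about 4 years old, and the groups differed by stage. Each stage was represented by different goats, so that a difference between stages is also a difference between animals.

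The ducts and alveoli of the mammary gland are lined by an inner layer of luminal cells, which make milk, and an outer layer of basal cells, most of which are contractile myoepithelial cells. Keratins form filaments from paired type I and type II chains, KRT8 with KRT18 in luminal cells and KRT5 with KRT14 in basal cells, and p63, the product of TP63, maintains the basal identity. During milk let-down, oxytocin binds its receptor on myoepithelial cells, calcium activates the myosin light chain kinase encoded by MYLK, and filaments of smooth muscle actin, encoded by ACTA2, shorten and press milk out of the alveoli. ACTA2, MYLK and CNN1 are also expressed in the smooth muscle of vessels and in pericytes, so in whole tissue they are not markers of myoepithelium alone.

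Values are FPKM, that is fragment numbers divided by gene length and by the fragments of the library, so that levels of different genes can be set side by side. FPKM carry no count of reads, so the depth behind a value is unknown and no counting error can be given. The 10 highest genes took 80.6% to 86.0% of all FPKM during LL but 53.6% to 58.5% in the libraries of the other stages, which left lower FPKM for the remaining genes of LL, and values were therefore scaled between libraries by median ratios before stages were compared. Every log2 fold change below is on the log2(scaled FPKM + 1) scale, which understates the change of weakly expressed genes. Genes were called when the limma p, adjusted by Benjamini-Hochberg over all 14701 genes tested, was under 0.05 and the log2 fold change was 1 or more in size. In whole tissue, fewer cells of a type and less RNA per cell cannot be told apart.

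TP63 and OXTR were the only marker genes called between stages. Against LL, TP63 was higher in DP and in LG, whereas OXTR was called higher in LG against both LL and DP. In DP against LL, 1 of the 10 genes was called, where 22.6% of all genes tested were called in either direction, 13.8% higher and 8.79% lower. In LG against LL, 2 of the 10 were called, both higher, against 17.3% of all genes in either direction, 10.7% higher and 6.61% lower. In LG against DP, 1 of the 10 was called, against 13.3% of all genes in either direction, 6.37% higher and 6.88% lower. Each count lies within 2 genes of what the share of all genes would give for 10 genes. Under the threshold on adjusted p alone, 2 marker genes passed in each comparison, against 56.9%, 50.2% and 34.8% of all genes. No marker gene was called lower in any comparison. At an unadjusted limma p under 0.05, 4 marker genes were higher in DP than in LL, 2 were higher in LG than in LL, and 1 was higher and 1 lower in LG than in DP. The median log2 fold change of the 10 genes was 0.44 for DP against LL, 0.00 for LG against LL and -0.10 for LG against DP, and that of all genes tested was 0.004, 0.019 and 0.008.

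**Figure D1:**
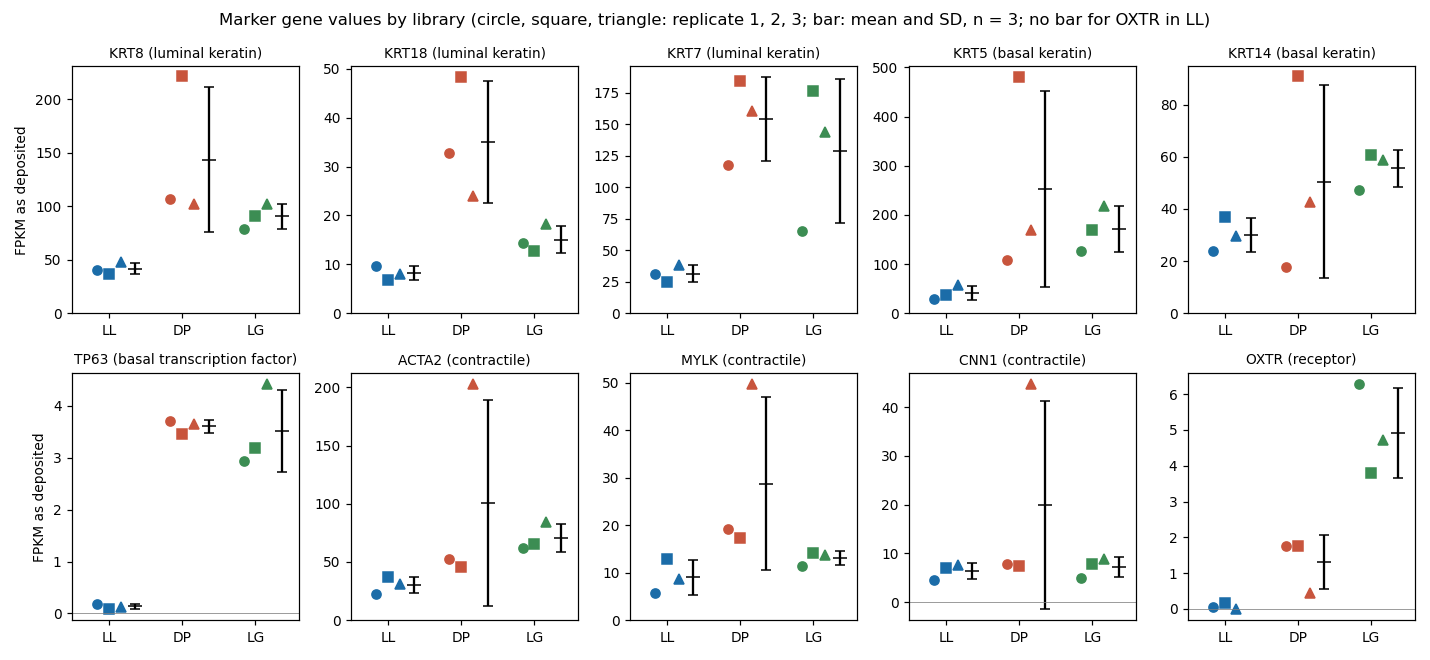
FPKM as deposited (vertical axes, 1 panel per gene, each with its own scale) of the 10 marker genes in the 9 libraries, by stage (horizontal axis); circle, square and triangle are replicates 1, 2 and 3, and the bar is the mean with the SD (n = 3), left out for OXTR in LL where 1 library is listed at 0. TP63 is at 0.09 to 0.19 in LL and 2.93 to 4.41 in DP and LG, OXTR is highest in LG, the keratins peak in DP replicate 2, and ACTA2, MYLK and CNN1 peak in DP replicate 3.

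KRT8 encodes the type II keratin of simple epithelia. KRT8 (gene ID 102182762, chromosome 5, 26768168 to 26775646 in the deposited coordinates, plus strand) had 40.2, 37.1 and 47.5 FPKM in LL replicates 1, 2 and 3. It had 106.7, 221.4 and 101.7 FPKM in the DP libraries and 79.1, 90.9 and 102.4 in the LG libraries. As deposited, all DP and LG libraries were above all LL libraries, and after scaling the stages overlapped, with means of 75.4 ± 7.34 scaled FPKM for LL, 98.0 ± 48.1 for DP and 72.6 ± 6.0 for LG (SD, n = 3). The log2 fold change of KRT8 was 0.28 for DP against LL (95% interval -0.35 to 0.90, adjusted p = 0.416), -0.05 for LG against LL (adjusted p = 0.888) and -0.33 for LG against DP (adjusted p = 0.386).

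KRT18, the type I partner of KRT8, lies close to it at chromosome 5, 26727660 to 26731409 on the minus strand (gene ID 102181566). KRT18 had 9.66, 6.89 and 8.11 FPKM in the LL libraries, 32.7, 48.4 and 23.9 in the DP libraries and 14.3, 12.7 and 18.2 in the LG libraries. Every DP library was above every LG library, as deposited and after scaling, and DP and LL overlapped after scaling. LG was lower than DP by a log2 fold change of -0.89 (95% interval -1.46 to -0.31, adjusted p = 0.0239), which passed the threshold on p and not the one on size, and without DP replicate 3 it passed both (-1.1, adjusted p = 0.00982). The threshold on p was missed without DP replicate 2 (-0.61, adjusted p = 0.0742), without LG replicate 1 (adjusted p = 0.0626) and without LG replicate 2 (adjusted p = 0.074). In DP against LL the log2 fold change of KRT18 was 0.60 (95% interval 0.02 to 1.17, adjusted p = 0.0708).

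KRT7 (gene ID 102184596, chromosome 5, 27373968 to 27387573, minus strand) encodes a type II keratin of ducts and other glandular epithelia. KRT7 had 31.2, 24.8 and 38.4 FPKM in the LL libraries, 117.8, 184.1 and 160.8 in the DP libraries and 65.4, 176.5 and 143.9 in the LG libraries. After scaling, all DP libraries were above all LL libraries, and LG replicate 1 lay among the LL libraries while the other LG libraries lay above them. The log2 fold change was 0.86 in DP against LL (95% interval 0.10 to 1.63, adjusted p = 0.0528) and 0.75 in LG against LL (95% interval -0.02 to 1.51, adjusted p = 0.0948). Without DP replicate 1 KRT7 was called higher in DP than in LL (1.07, adjusted p = 0.0374), and without LL replicate 2 the log2 fold change was 0.68 (adjusted p = 0.173). Without LG replicate 1 it was called higher in LG than in LL (1.14, adjusted p = 0.00978), and without LG replicate 2 the value was 0.45 (adjusted p = 0.305).

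KRT5 (gene ID 102175207, chromosome 5, 27096256 to 27102512, plus strand) encodes the type II keratin of basal cells. KRT5 had 29.5, 37.2 and 57.7 FPKM in the LL libraries, 108.9, 479.5 and 169.3 in the DP libraries and 125.9, 170.1 and 218.0 in the LG libraries. DP replicate 2 held the highest value of any marker gene in any library. After scaling, every LG library was above every LL library and DP overlapped both. The log2 fold change of KRT5 was 0.95 for DP against LL (95% interval -0.11 to 2.01, adjusted p = 0.111), 0.88 for LG against LL (95% interval -0.18 to 1.94, adjusted p = 0.150) and -0.07 for LG against DP (adjusted p = 0.921). Without DP replicate 1, KRT5 was called higher in DP than in LL (1.44, adjusted p = 0.0192), and without DP replicate 2 its log2 fold change was 0.33 (adjusted p = 0.384). With LL and LG alone in the fit, LG against LL gave 0.88 (adjusted p = 0.0158), under the threshold on size.

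KRT14 (gene ID 102178106, chromosome 19, 41438790 to 41443162, minus strand) encodes the type I partner of KRT5. KRT14 had 23.8, 36.9 and 29.6 FPKM in the LL libraries, 17.8, 90.8 and 42.8 in the DP libraries and 47.3, 60.7 and 58.7 in the LG libraries. The DP libraries held both the lowest and the highest value of the gene, and after scaling the 3 stages overlapped. It was the only keratin of the 5 with a log2 fold change below 0 in DP against LL, -0.91 (95% interval -1.95 to 0.14, adjusted p = 0.121), and without scaling this was 0.47. Without DP replicate 2, KRT14 was called lower in DP than in LL (-1.47, adjusted p = 0.0077) and higher in LG than in DP (1.2, adjusted p = 0.0317). Without DP replicate 1 these log2 fold changes were -0.30 (adjusted p = 0.424) and 0.03 (adjusted p = 0.95).

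The values of both basal keratins were tied to those of neighbouring genes, so that they are not separate measurements. On chromosome 5, LOC102177792, LOC108635997 and LOC102182669 were listed at the value of KRT5 plus 0.02, 0.06 and 0.04 FPKM in each of the 9 libraries, and KRT6A, a keratin of stressed epidermis, was listed 1.02 to 1.52 FPKM below KRT5. On chromosome 19, LOC102176997 was listed at the value of KRT14 plus 0.02 FPKM in each library, and LOC102177275 was 1.58 to 2.08 FPKM below KRT14. How one value came to be listed for several genes is not stated in the sources used here, and KRT5 and KRT14 may each stand for a group of neighbouring keratin genes. Of all genes in the table, 605 of 23499 followed a neighbour on a straight line in this way, and the other 8 marker genes did not.

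TP63 (gene ID 102190550, chromosome 1, 77159838 to 77426409, minus strand) encodes p63, a transcription factor of basal cells. TP63 was listed at 0.19, 0.09 and 0.13 FPKM in the LL libraries, at 3.71, 3.46 and 3.64 in the DP libraries and at 2.93, 3.19 and 4.41 in the LG libraries. Every LL library was far below every DP and LG library, and DP and LG overlapped. The mean was 0.137 ± 0.0503 FPKM for LL, 3.60 ± 0.129 for DP and 3.51 ± 0.790 for LG (SD, n = 3). Against LL, TP63 rose in DP by a log2 fold change of 1.47 (standard error 0.127, 95% interval 1.18 to 1.75, adjusted p = 1.84e-05) and in LG by one of 1.60 (standard error 0.127, 95% interval 1.31 to 1.88, adjusted p = 1.74e-05). In scaled FPKM without the added 1, the ratio of means was 9.69 and 11.1. LG against DP gave 0.13 (95% interval -0.15 to 0.41, adjusted p = 0.457). TP63 passed the filter on low values through its 6 DP and LG libraries, since all LL libraries were under 0.5 FPKM.

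The step from near 0 to a low level was shared with many genes. TP63 was among 618 genes, 4.2% of those tested, that were under 0.5 FPKM in every LL library and at 2 FPKM or more in every DP and LG library, limits that were chosen after the values of TP63 were seen. The genes with the pattern most like that of TP63 over the 9 libraries, among 11900 genes with a mean of at least 2 FPKM, were DDHD1 (Pearson r = 0.999), PDCD7 and VARS2 (both r = 0.996), whose LL means were 0.223, 0.197 and 0.210 FPKM. These correlations describe 9 libraries in 3 stages and rest on the gap between LL and the rest.

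ACTA2 (gene ID 102191486, chromosome 26, 40710848 to 40728541, plus strand) had 22.7, 36.9 and 31.4 FPKM in the LL libraries, 52.8, 46.0 and 202.6 in the DP libraries and 62.4, 65.1 and 84.2 in the LG libraries. The value in DP replicate 3 was far above the others, and after scaling all 3 stages overlapped. Mean scaled FPKM were 54.6 ± 10.8 for LL, 69.1 ± 62.1 for DP and 56.3 ± 6.71 for LG (SD, n = 3). The log2 fold change was -0.001 in DP against LL (95% interval -1.06 to 1.06, adjusted p = 0.999) and 0.05 in LG against LL (95% interval -1.01 to 1.12, adjusted p = 0.934). In this fit of all libraries, changes of up to about 1 on the log2 scale in either direction could not be told from none. Without DP replicate 3, ACTA2 was lower in DP than in LL (-0.68, adjusted p = 0.018). It was then higher in LG than in DP (0.74, adjusted p = 0.0211), and both values were under the threshold on size. Without DP replicate 2 these values were 0.37 and -0.31. Without scaling ACTA2 was called higher in DP and in LG than in LL.

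MYLK (gene ID 102190641, chromosome 1, 67744853 to 67890964, minus strand) encodes the kinase that phosphorylates the myosin light chain. MYLK had 5.63, 12.9 and 8.61 FPKM in the LL libraries, 19.2, 17.3 and 49.8 in the DP libraries and 11.4, 14.2 and 13.6 in the LG libraries. All LG libraries were below all DP libraries, as deposited and after scaling, with a log2 fold change of -0.69 (95% interval -1.53 to 0.16, adjusted p = 0.185). Against LL the log2 fold change of MYLK was 0.15 in DP (adjusted p = 0.746) and -0.54 in LG (adjusted p = 0.265).

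CNN1 (gene ID 102190599, chromosome 7, 95746922 to 95754869, plus strand) encodes calponin 1, an actin-binding protein of differentiated smooth muscle. CNN1 had 4.45, 7.06 and 7.51 FPKM in the LL libraries, 7.79, 7.43 and 44.6 in the DP libraries and 4.91, 7.82 and 8.76 in the LG libraries. Apart from DP replicate 3, the 8 libraries lay within 4.45 to 8.76 FPKM. After scaling, all LG libraries were below all LL libraries, with a log2 fold change of -0.89 (95% interval -2.11 to 0.33, adjusted p = 0.201). In DP against LL it was -0.20 (95% interval -1.43 to 1.02, adjusted p = 0.765). This value depended on DP replicate 3. Without that library it was -0.99 (adjusted p = 0.00439), which passed the threshold on p and not the one on size. Without DP replicate 1 it was 0.20. The fall of CNN1 in LG against LL also passed the threshold on p alone without DP replicate 3 (adjusted p = 0.00431).

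OXTR (gene ID 102185124, chromosome 22, 17594776 to 17607958, plus strand) encodes the oxytocin receptor. OXTR was listed at 0.05, 0.17 and 0 FPKM in the LL libraries, at 1.75, 1.75 and 0.45 in the DP libraries and at 6.27, 3.79 and 4.71 in the LG libraries. The 3 stages did not overlap, with LG above DP and DP above LL, although after scaling DP replicate 3 (0.313) lay close to LL replicate 2 (0.307). OXTR rose in LG by a log2 fold change of 2.11 against LL (standard error 0.232, 95% interval 1.59 to 2.63, adjusted p = 0.000101) and of 1.41 against DP (standard error 0.232, 95% interval 0.89 to 1.93, adjusted p = 0.00168), a ratio of scaled means of 4.45 in LG to DP. In DP against LL the log2 fold change was 0.71 (95% interval 0.18 to 1.23, adjusted p = 0.0267), under the threshold on size. With a pseudocount of 0.1 OXTR was called in this comparison too, with 2.12. OXTR reached 0.5 FPKM in 5 libraries, 2 in DP and 3 in LG. The genes with the most similar pattern over the 9 libraries were ZC3HAV1 and CDC20 (both Pearson r = 0.98) and TRPS1 (r = 0.979).

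**Figure D2:**
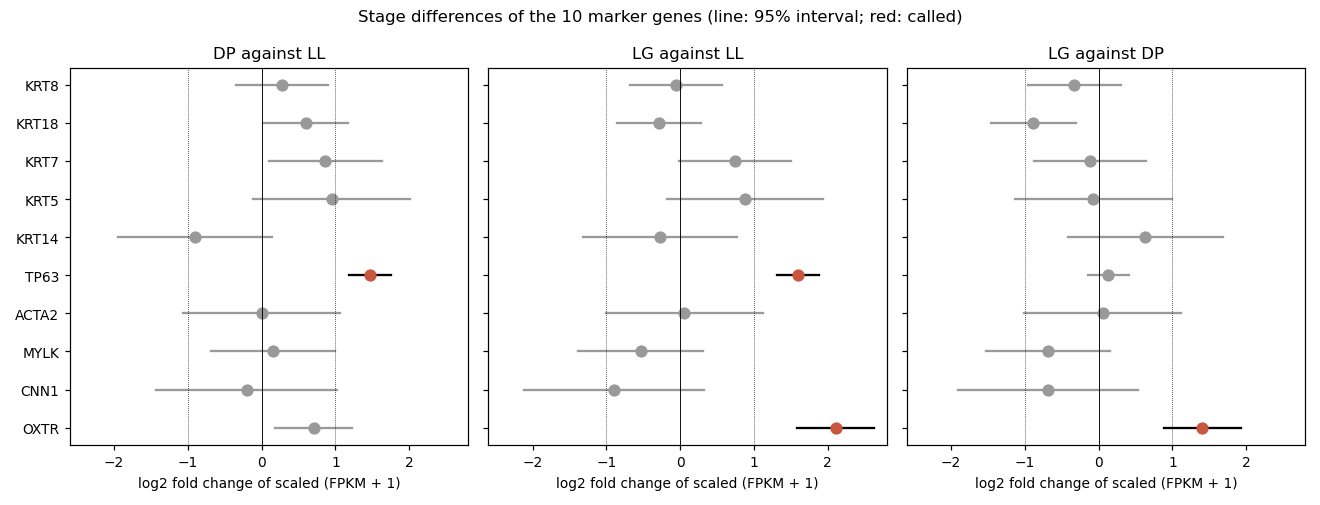
Log2 fold change of scaled FPKM + 1 (horizontal axis) of the 10 marker genes (vertical axis) in the 3 comparisons of stages, with 95% intervals from limma as lines, dotted lines at -1 and 1, and called genes in red. TP63 is called in DP against LL and LG against LL, OXTR in LG against LL and LG against DP, and the intervals of KRT5, KRT14, ACTA2 and CNN1 are wide.

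Levels per length were in the same general order in the 3 stages. In DP and LG, KRT5 had the highest mean (252.6 and 171.3 FPKM), followed by KRT7 (154.2 and 128.6), KRT8 (143.3 and 90.8) and ACTA2 (100.5 and 70.6). In LL, KRT8 (41.6 FPKM) and KRT5 (41.5) were followed by KRT7 (31.5), ACTA2 (30.3) and KRT14 (30.1), and these 5 did not differ beyond the ranges of their neighbours. KRT14 stood apart from MYLK below it in LL, and from ACTA2 above and KRT18 below it in LG. TP63 and OXTR had the lowest means in every stage, with TP63 above OXTR in LL and DP and below it in LG. The ranges of these 2 genes overlapped in LL and LG and were apart in DP.

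As deposited, 8 of the 10 genes had no overlap between DP and LL and 8 had none between LG and LL, and all of these were higher outside LL. These counts are to be read against 87.9% and 80.0% of all genes tested. Between LG and DP, 3 genes did not overlap, against 49.8% of all genes. After scaling the counts were 3, 4 and 3 of 10, against 65.9%, 61.1% and 47.9% of all genes.

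**Figure D3:**
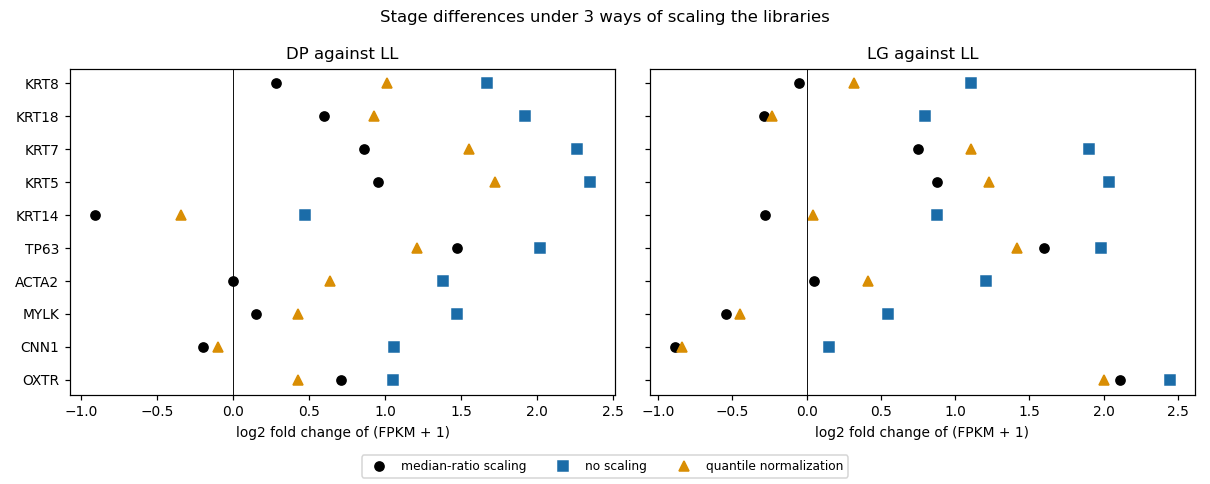
Log2 fold change of FPKM + 1 (horizontal axes) of the 10 marker genes (vertical axis) in DP against LL and in LG against LL under median-ratio scaling, no scaling and quantile normalization. Without scaling all points lie above 0, where the median of all genes is shifted by 1.09 and 0.93, and KRT14, CNN1 and ACTA2 in DP and KRT8, KRT18, KRT14, MYLK and CNN1 in LG then change side.

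The spread of the marker genes between goats was widest in the dry period. The median SD of the 10 genes on the scaled log2 scale was 0.734 for DP, 0.27 for LL and 0.188 for LG, where the median over all genes tested was 0.181, 0.148 and 0.182. CNN1 (SD 1.38), ACTA2 (1.19), KRT14 (1.17) and KRT5 (1.13) varied most in DP, and TP63 (0.0282) least. These SDs describe 3 goats per stage and were not tested against each other.

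The keratins and the contractile genes peaked in different dry period goats. DP replicate 2 was the highest DP library for all 5 keratins, luminal and basal alike, against 21.4% of all genes tested. Of the other markers of the 2 layers, 3 of 15 luminal and 2 of 11 basal genes tested were highest there. Of the 5 other keratins tested, 4 were highest there, among them KRT6A, which is tied to KRT5. KRT19, also 1 of the luminal genes, had 145.7, 334.9 and 265.9 FPKM in DP replicates 1, 2 and 3. KRT10, another of the 4, had nearly equal values in DP replicates 2 and 3 (3.00 and 2.98 FPKM). Against the mean of the other 2 DP libraries, the FPKM of DP replicate 2 was 3.45 times as high for KRT5, 2.99 for KRT14, 2.12 for KRT8, 1.71 for KRT18 and 1.32 for KRT7. DP replicate 3 was the highest for the contractile genes, 5.86 times as high for CNN1, 4.10 for ACTA2 and 2.73 for MYLK, and it was the lowest for OXTR, at 0.257 of the mean of the others. TP63 was within 0.941 to 1.05 of the mean of the others in each DP library.

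**Figure D4:**
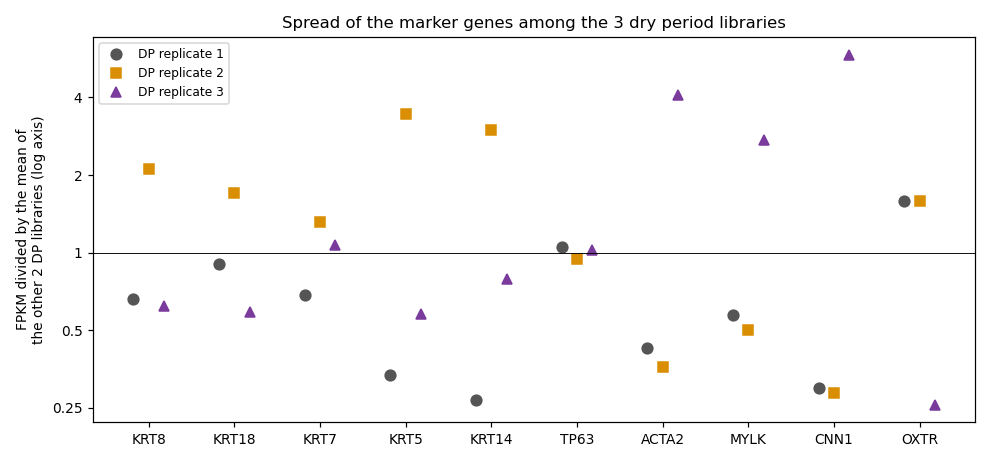
FPKM of each marker gene in each dry period library divided by the mean of the other 2 dry period libraries (vertical axis, log scale), by gene (horizontal axis). DP replicate 2 is above 1 for the 5 keratins (1.32 to 3.45), DP replicate 3 for ACTA2, MYLK and CNN1 (2.73 to 5.86), and the 3 libraries lie together for TP63.

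Other genes of smooth muscle and stroma were also highest in DP replicate 3. Of 15 further smooth muscle contractile genes tested, 14 (93.3%) had their highest DP value there, with a median of 2.25 times the mean of the other 2, against 34.9% of all genes tested. The same held for 9 of 10 fibroblast genes (90.0%, median 3.16) and 7 of 9 genes of pericytes and vascular smooth muscle (77.8%, median 1.96). DES, a filament protein of smooth and striated muscle, had 106.2 FPKM in DP replicate 3 and 11.24 and 11.96 in the others, and COL1A1, a fibroblast collagen gene, had 475.2 against 54.5 and 127.1. Summed over the list, the fibroblast genes had 903.4, 1519.1 and 3852.4 FPKM in DP replicates 1, 2 and 3, 125.3 to 229.9 in LL and 656.2 to 1218.4 in LG. The pericyte genes summed to 65.7 to 117.8 FPKM in DP, 13.8 to 16.3 in LL and 33.0 to 52.3 in LG, and none was at 0 in all libraries. From LL to DP, 9 of 10 fibroblast genes, 4 of 9 pericyte genes and 4 of 7 leukocyte genes tested were called higher. Called lower were 2 of 5 adipocyte genes. Of all genes tested, 13.8% were called higher and 8.79% lower. The called genes NOTCH3, KCNJ8, ABCC9 (pericyte) and NKG7 (leukocyte) were under 0.5 FPKM in every LL library and passed the filter through the DP and LG libraries. None of 10 endothelial genes was called. Of these, 4 passed the threshold on adjusted p but not the one on size, where 56.9% of all genes tested passed on adjusted p alone. The adipocyte genes did not move together. ADIPOQ had 0.08 to 0.23 FPKM in LL and 19.3, 0.79 and 1.72 in DP (1.46, adjusted p = 0.0766), not called. PLIN1, left out by the filter, had 0.05 to 0.18 FPKM in LL and 5.83, 0.39 and 0.41 in DP. The part of all these cell types in the values of ACTA2, MYLK and CNN1 was not tested.

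Skin is another tissue that holds KRT5, KRT14 and TP63, and most of its listed genes, though not all, were near 0. Of 10 genes of the epidermis in the table, 7 were at or under 0.5 FPKM in every library and 3 of these were at 0 in all. The sum of that list, 31.2 to 481.9 FPKM, was nearly all from KRT6A, which follows KRT5, and KRT10 had 2.42 to 5.21 FPKM over the 9 libraries. Of 6 hair follicle genes, 5 were at or under 0.5 FPKM in every library, and KRTAP11-1, a keratin-associated protein gene of hair, had 98.4, 71.3 and 33.7 FPKM in the LG libraries and at most 0.21 in any other, and was called higher in LG than in LL (5.44, adjusted p = 4.7e-06). KRTAP11-1 passed the filter through its LG libraries alone. The part of skin in the values of KRT5, KRT14 and TP63 was not tested. Of 7 genes of skeletal muscle, 5 were at or under 0.5 FPKM throughout.

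Ratios of FPKM between marker genes within a library do not depend on scaling, although differences of log2 ratios were taken on FPKM + 1 and move with the pseudocount where a gene is weakly expressed. KRT5 to KRT14, the basal keratin pair, was 1.24, 1.01 and 1.95 in the LL libraries, 6.11, 5.28 and 3.95 in the DP libraries and 2.66, 2.8 and 3.72 in the LG libraries. The 3 stages did not overlap, with DP above LG and LG above LL, and each of the 2 values may stand for the linked neighbours as well. The mean log2 ratio differed by 1.88 for DP against LL, 1.17 for LG against LL and -0.72 for LG against DP. Each had p = 0.1 in a two-sided exact permutation test, the smallest p that 3 against 3 libraries allow, and 0.176 after adjustment over 30 ratio comparisons. No ratio comparison can pass 0.05 in this design.

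The ratio of KRT14, a basal keratin, to KRT18, a luminal one, was lower in DP. It was 2.46, 5.36 and 3.65 in the LL libraries, 0.544, 1.88 and 1.79 in the DP libraries and 3.31, 4.77 and 3.23 in the LG libraries, so that DP lay below both other stages and LL and LG overlapped. The difference was -1.45 in DP against LL and 1.53 in LG against DP (exact permutation p = 0.1 each). KRT5 to KRT8, another basal to luminal ratio, gave a different order. It was 0.734, 1.0 and 1.21 in the LL libraries, 1.02, 2.17 and 1.67 in the DP libraries and 1.59, 1.87 and 2.13 in the LG libraries. Of the stages, LG and LL alone did not overlap, with a difference of 0.93. The basal to luminal ratio therefore depended on which keratins were taken.

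Relative to ACTA2, the other contractile genes were lowest in LG. MYLK to ACTA2 was 0.183, 0.218 and 0.162 in LG, below 0.249, 0.351 and 0.275 in LL and 0.364, 0.375 and 0.246 in DP. CNN1 to ACTA2 was 0.0786, 0.120 and 0.104 in LG, below 0.196, 0.192 and 0.239 in LL and 0.148, 0.162 and 0.220 in DP. The mean log2 ratio of MYLK to ACTA2 was lower in LG by 0.66 against LL and 0.75 against DP, and that of CNN1 to ACTA2 by 1.06 and 0.74, each with an exact permutation p = 0.1. In DP replicate 3, where all 3 genes were highest, MYLK to ACTA2 was the lowest of the DP libraries and CNN1 to ACTA2 the highest.

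TP63 to KRT14 and OXTR to ACTA2 followed the called genes. TP63 to KRT14 ranged over 0.00244 to 0.00799 for LL, 0.0381 to 0.208 for DP and 0.0526 to 0.0752 for LG, with LL apart from both. OXTR to ACTA2 was at most 0.00461 in the LL libraries, 0.0332, 0.0381 and 0.00222 in the DP libraries and 0.1, 0.0583 and 0.0560 in the LG libraries, with LG apart from both. The log2 ratio of TP63 to KRT14 differed by 1.55 in DP against LL, and by 3.52 with a pseudocount of 0.1, and that of OXTR to ACTA2 by -0.33, and by 1.55 with a pseudocount of 0.1. ACTA2 to KRT14 ranged over 0.953 to 1.06 for LL, 0.507 to 4.73 for DP and 1.07 to 1.43 for LG. Of the 10 ratios, 3 did not overlap between DP and LL, 8 between LG and LL and 6 between LG and DP. Among all pairs of genes tested, 61.9%, 61.0% and 49.9% of ratios did not overlap in these comparisons.

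**Figure D5:**
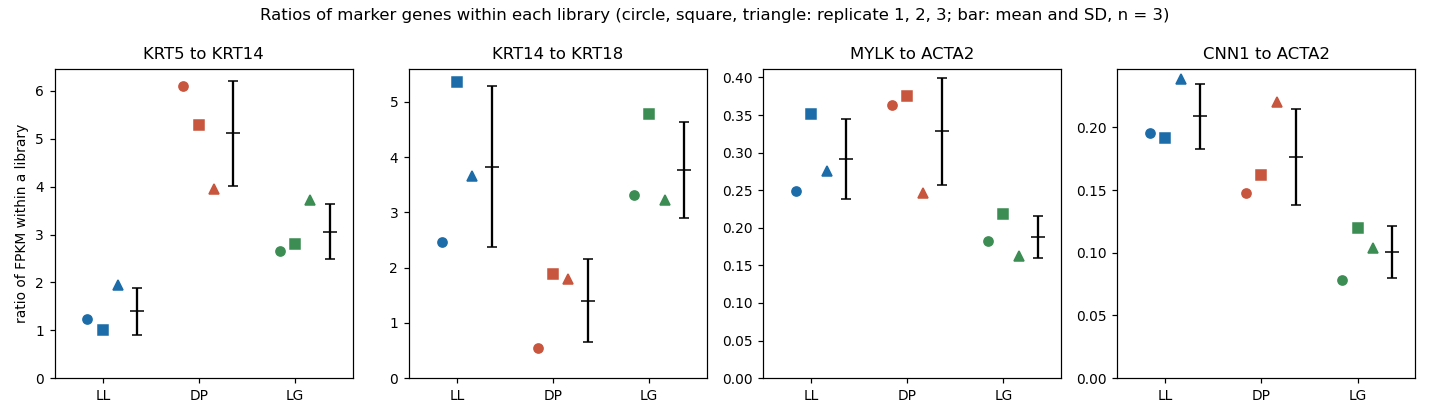
Ratio of FPKM within each library (vertical axes) by stage (horizontal axis) for 4 pairs of marker genes; circle, square and triangle are replicates 1, 2 and 3, and the bar is the mean with the SD (n = 3). KRT5 to KRT14 is highest in DP (3.95 to 6.11), KRT14 to KRT18 is lowest in DP (0.544 to 1.88), and both ratios to ACTA2 are lowest in LG.

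Of 15 further markers of the luminal layer tested, 2 rose and 2 fell from LL to DP, 4 were higher and 1 lower in LG than in LL, and 6 rose and 4 fell from DP to LG. Among all genes tested 22.6%, 17.3% and 13.3% were called in these comparisons, and the counts of the lists that follow are to be read against the same shares. ELF5, a transcription factor of milk-secreting cells, fell in DP against LL by 4.19 on the log2 scale (adjusted p = 3.13e-06) and rose in LG against DP (3.82, adjusted p = 2.09e-05). MUC1, a mucin of the apical membrane, fell by 3.66 in DP and by 3.32 in LG against LL (adjusted p = 1.08e-05 and 2.62e-05). ALDH1A3, an aldehyde dehydrogenase gene of luminal progenitors, and FOXA1, a transcription factor gene of hormone-sensing cells, rose in DP against LL (1.35 and 1.23, adjusted p = 0.00221 and 0.00316). FOXA1 was at 0.05 to 0.13 FPKM in LL and 0.12 to 0.57 in LG, so its place among the genes tested depended on its DP libraries. MUC1, at 0.20 to 0.58 FPKM in DP and 0.19 to 1.71 in LG, likewise depended on its LL libraries. From DP to LG, ALDH1A3 fell by 1.83, PROM1 by 1.58, KIT by 1.49 and FOXA1 by 1.1. PGR, the progesterone receptor gene of hormone-sensing luminal cells, rose in LG against LL (1.91, adjusted p = 0.00017) and against DP (1.76, adjusted p = 0.000495). KRT19, a luminal keratin and the highest of the other keratins, had 82.8 to 142.3 FPKM during LL, 145.7 to 334.9 during DP and 205.6 to 300.6 during LG, and its log2 fold changes were -0.40, -0.17 and 0.23, none called. Of the 29 other keratin genes in the table, 5 were tested and 24 were at or under 0.5 FPKM in every library, 14 of them at 0, and 1, KRT10, was called, lower in DP than in LL (-1.06, adjusted p = 0.000945).

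Among 11 further basal markers tested, 3 were higher in DP than in LL, 2 were higher and 1 lower in LG than in LL, and 2 fell from DP to LG. TRIM29, a gene of basal epithelia, resembled TP63, with 0.05 to 0.38 FPKM during LL, 3.84 to 7.73 during DP and 4.03 to 4.64 during LG, and log2 fold changes of 1.77 (adjusted p = 0.000128) and 1.71 (adjusted p = 0.000221) against LL. PROCR, a receptor gene of some basal progenitors and of endothelium, rose in DP (1.35, adjusted p = 0.000482) and fell in LG against DP by 1.54. VIM, a filament gene of stroma and of basal cells, rose in DP against LL (1.22, adjusted p = 0.0177), and fell in LG against DP by 1.93. MME, the surface marker CD10 of myoepithelium, rose in LG against LL (1.23, adjusted p = 0.0434) and had 17.3, 11.6 and 2.51 FPKM in DP.

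Of 12 genes for the attachment of basal cells to the basement membrane, 4 rose and 1 fell from LL to DP, 1 was higher and 1 lower in LG than in LL, and 4 fell from DP to LG. ITGA2, a collagen-binding integrin subunit, rose in DP (1.66, adjusted p = 8.48e-06) from 0.03 to 0.11 FPKM in LL to 3.67 to 4.02, and fell again in LG by 1.52. ITGA2 passed the filter through its 3 DP libraries alone, so its place among the genes tested depended on its level in DP. LAMA5, a laminin chain, rose in DP (1.61) and LG (1.38) against LL, and LAMA3, the laminin chain of hemidesmosomes, fell in LG against LL by 1.73 (adjusted p = 0.00117).

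Among genes known as targets of p63, JAG2, a Notch ligand gene, rose against LL in DP and in LG, by log2 fold changes of 1.63 (adjusted p = 0.000106) and 1.76 (adjusted p = 9.65e-05). JAG2 was under 0.3 FPKM in every LL library and at 3.06 to 6.45 FPKM in the other libraries, the shape seen for TP63. PERP, a desmosome gene under p63 control, had 14.6 to 17.1 FPKM during LL, 27.2 to 44.5 during DP and 31.4 to 32.5 during LG, and its log2 fold changes against LL were -0.24 and -0.14, neither called. Like TP63, the genes TRIM29, LAMA5 and JAG2 were under 0.5 FPKM in every LL library and passed the filter through the DP and LG libraries. In LG against DP none of the genes tested from this list was called by limma, and none had an unadjusted p under 0.05.

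Of 15 smooth muscle contractile genes beyond the 3 markers, 2 were called for LG against LL and 2 for LG against DP, beside 17.3% and 13.3% of all genes tested. In DP against LL, where the share of all genes was 22.6%, none of the 15 was called by limma, and without scaling 13 were called. With scaling, 3 of the 15 passed the threshold on adjusted p but not the one on size. In LG against LL, SMTN, the smoothelin gene, and TPM1, a tropomyosin gene, fell, by 1.74 (adjusted p = 0.00169) and 1.24 (adjusted p = 0.00235). In LG against DP, DES and SYNPO2 fell, by 2.15 (adjusted p = 0.0413) and 1.47 (adjusted p = 0.000418). The median log2 fold change of the 15 was 0.28 for DP against LL, -0.46 for LG against LL and -0.53 for LG against DP. MYL9, the regulatory myosin light chain that MYLK phosphorylates, and the smooth muscle myosin gene MYH11 were among the genes most like CNN1 over the 9 libraries (r = 0.966 and 0.945). Of 12 genes that control contraction, 1 was called, MYOCD, the coactivator of smooth muscle genes, which rose in LG against LL (1.34, adjusted p = 0.0203) with 1.60, 7.46 and 1.51 FPKM in LG. MYOCD was at 0.12 to 0.21 FPKM in LL and passed the filter through the DP and LG libraries. In DP against LL and in LG against DP limma called none of these 12, with 5 and 8 at an unadjusted p under 0.05. Of these, 4 and 3 passed the threshold on adjusted p but not the one on size.

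Of 13 genes listed with oxytocin receptor signalling, 2 rose and 1 fell from LL to DP, 1 was higher and 1 lower in LG than in LL, and 1 fell from DP to LG. The 1 that fell from LL to DP was LNPEP (-1.17, adjusted p = 0.00495), which does not act below the receptor. ITPR3 and ITPR1, which encode calcium release channels, rose in DP against LL (1.43 and 1.25, adjusted p = 0.000123 and 0.00275). ITPR3 was at 0 to 0.21 FPKM in LL and passed the filter through the DP and LG libraries. In LG against LL PRKCA, a protein kinase C gene, rose (1.18, adjusted p = 0.00127) and ATP2A2, the calcium pump of the sarcoplasmic reticulum, fell by 1.08 (adjusted p = 0.00577). CACNA1C, an L-type calcium channel gene, fell in LG against DP by 1.31 (adjusted p = 0.00187). Its place among the genes tested depended on its DP libraries, since it was at 0.24 to 0.52 FPKM in LL and 0.32 to 0.64 in LG. RGS2, a regulator of G protein signalling and the gene of the list with the highest mean, had 64.9 to 247.1 FPKM in LG and 13.2 to 30.9 in LL, and its log2 fold change of 1.16 did not pass the test (adjusted p = 0.124). Each of these lists shares its libraries with the marker genes, and none of the counts was tested as a set.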

How the data were processed

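RNA-seq of mammary tissue from 9 goats (3 per stage, prepared with a TruSeq kit) was used as a table of 23499 genes. The submitters' processing notes name FastQC, Trimmomatic, HISAT2, SAMtools and HTSeq, and the paper's methods name StringTie for quantification. The deposited values carry no unit and were read as gene-level FPKM made by the authors, since they have decimals and unequal sums per library. Coordinates are those of the deposited table, which names no build, and 23465 gene identifiers and starts matched RefSeq ARS1.2. FPKM give no read counts, so depth and counting error are unknown. All 9 columns of values were used.

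FPKM were divided by median-ratio factors (15905 genes), 1 was added and log2 taken. Genes at 0.5 FPKM or more in 3 or more libraries (14701) were fitted with limma 3.58.1 (R 4.3.3, trend, all libraries, no covariates) and adjusted by Benjamini-Hochberg. Ratios within libraries were compared by two-sided exact permutation tests in scipy 1.17.1. Linked neighbours were genes among the 8 next on either side whose FPKM followed the gene on a straight line within 1% of its range. On simulated data, the comparison of DP with LL called 179 of 200 genes changed by 2 on the log2 scale and 8 unchanged ones, among 14555, and 34 of 34 linked pairs and 0 others were found among 3000 genes. The changed genes were drawn from levels above those of TP63 and OXTR, and each gene had the same SD in all stages. The simulation therefore does not cover weakly expressed genes or the wider DP spread. The simulated linked pairs were exact lines without noise, so finding them all was set by the design. The 10 marker genes and the gene lists were chosen with earlier results of these data known. Named beside them are, per list and comparison, up to 2 called genes with the largest change and a higher-stage mean of 2 FPKM or more, the gene of the highest mean, and the 3 genes most correlated with a marker. Of these, the ones that bear on the marker genes are printed, and 1 gene is not reported here, though totals over the lists include it. Alternatives were no scaling, quantile normalization, a pseudocount of 0.1, other filters, 2 stages only, no trend, no fold threshold, a replicate block and each library left out.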

Additional observations from a re-analysis of the deposited data

How the results depend on the processing

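TP63 against LL and OXTR in LG kept their calls under all 17 alternatives tried for each, with log2 fold changes of 1.21 to 2.90 and 1.42 to 3.07 for TP63 in DP and LG against LL, and of 1.92 to 4.30 and 1.15 to 2.18 for OXTR in LG against LL and DP. The scaling between libraries mattered most: without it the marker genes called were 8 for DP against LL, 6 for LG against LL and 2 for LG against DP, in place of 1, 2 and 1, and 203 in place of 102 results of list genes were called. In the comparison of DP with LL, quantile normalization gave 4, a pseudocount of 0.1 gave 2 and adjusted p alone gave 2, and in that of LG with DP, quantile normalization and adjusted p alone gave 2 each. With one library left out the counts were 1 to 3, 2 to 3 and 1 to 2. Without DP replicate 1, KRT5 and KRT7 joined TP63 in DP against LL, and without DP replicate 2, KRT14 did. OXTR was joined in LG against DP by KRT14 without DP replicate 2 and by KRT18 without DP replicate 3.

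Without scaling, log2 fold changes turned to 0.47 (KRT14), 1.38 (ACTA2) and 1.06 (CNN1) in DP against LL, to 1.11 (KRT8), 0.80 (KRT18), 0.88 (KRT14), 0.55 (MYLK) and 0.15 (CNN1) in LG against LL, and to -0.04 (TP63) and -0.18 (ACTA2) in LG against DP. With quantile normalization they turned to 0.64 (ACTA2) in DP against LL, 0.32 (KRT8) and 0.04 (KRT14) in LG against LL and -0.23 (ACTA2) in LG against DP. OXTR to ACTA2 turned to 1.55 in DP against LL with a pseudocount of 0.1.

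With 1 library left out, values that changed sign ranged as follows in DP against LL, from -0.10 to 0.47 for KRT8, -0.68 to 0.37 for ACTA2, -0.32 to 0.41 for MYLK and -0.99 to 0.20 for CNN1. The ranges for LG against LL were -0.15 to 0.01 for KRT8 and -0.08 to 0.19 for ACTA2. Those for LG against DP were -0.52 to 0.05 for KRT8, -0.41 to 0.28 for KRT7, -0.56 to 0.55 for KRT5, -0.31 to 0.74 for ACTA2 and -1.08 to 0.11 for CNN1. For log2 ratios they were -0.18 to 0.34 (KRT14 to KRT18, LG against LL), -0.04 to 0.50 (KRT5 to KRT8), -1.03 to 0.15 (TP63 to KRT14) and -1.53 to 0.06 (ACTA2 to KRT14) for LG against DP, and -0.03 to 0.29 (MYLK to ACTA2) and -0.87 to 0.65 (OXTR to ACTA2) for DP against LL. None of these was called. The cause was not tested.

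Libraries that share a replicate number correlated at -0.106 to 0.201 in their deviations from the stage means, against -0.223 to 0.072 for other pairs. The 2 ranges overlapped, and the highest values were between libraries of one number, such as DP1 with LG1 (0.201) and DP3 with LG3 (0.156). What the numbers stand for is not given in the labels, and the cause of these values was not tested. With the replicate number as a block the counts were 1, 2 and 1 as before, and 23 of the 30 ratio comparisons had all same-number differences in one direction, where 17 did not overlap between stages. Leaving out KRT5 and KRT14, an alternative added after the values were seen, could not change the counts, since neither was called. In the fit of all libraries, with 3 goats per stage and unknown depth, changes under about 1 on the log2 scale in KRT5, KRT14, ACTA2 and CNN1 could not be resolved. In DP against LL, such changes in CNN1 and ACTA2 passed the threshold on adjusted p without DP replicate 3. In LG against LL, those in CNN1 and KRT5 did so with LL and LG alone in the fit. Without DP replicate 3, CNN1 also passed it in LG against LL, and ACTA2 in LG against DP.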
